A study of Drosophila melanogaster with 8 samples.

Results

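Peaks of N6-methyladenine (6mA) on ‘412’ and blood, a pair of related LTR retrotransposons of Drosophila melanogaster, were followed across ovarian DNA libraries. The members were all rows of the deposited transposon peak lists whose sequence was named ‘412’ (a name, not a number, and therefore in quotation marks; FBte0000007 in the files) or blood (FBte0000279). These were 44 of 144 transposon peaks, 23 on ‘412’ and 21 on blood. The study compared Sam-S ovaries, in which a UASp-Sam-S transgene was expressed in the germline by nanos-gal4, with control ovaries. Sam-S encodes S-adenosylmethionine synthetase, which makes the methyl donor used by DNA methyltransferases. Each genotype had 2 immunoprecipitated libraries, pulled down with a 6mA antibody from Synaptic Systems, and each batch in the labels (1 and 2) held 1 library of each genotype. The libraries are called Sam-S 1, Sam-S 2, control 1 and control 2, where the number is both replicate and batch. The 4 input libraries enter only through the authors' peak calling. The labels do not say whether control females carried the driver or the transgene, how many animals made a library, or how old they were. Expression of the transgene cannot be checked in DNA peak lists.

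LTR retrotransposons copy themselves through RNA that is reverse transcribed and inserted again, and their long terminal repeats flank genes for capsid proteins and for the enzymes of the cycle. ‘412’ transcripts are a classical marker of the somatic gonadal precursors of the fly embryo, and blood takes its name from its insertion in the white eye colour gene. In the ovary, small piRNAs bound by Piwi proteins silence such elements. 6mA is an adenine modification that has been described in fly ovary DNA, including at transposons. A fly genome holds many copies of each element, and the coordinates below are positions on the element's own sequence, counted from 1 at its first base, not places in the genome. Libraries came from whole ovaries, so signals from germline and somatic cells, and from different copies of an element, cannot be told apart. The sequences of ‘412’ and blood were not used here, so no repeat, reading frame or motif is assigned to a peak.

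The immunoprecipitated libraries held 39591292 to 49800736 tags and the inputs 39571865 to 52344880, by the headers of the genome-wide lists. Control 2 stood apart there, with 683 genome-wide peaks against 3433 to 5509 in the other libraries. Results that rest on it are given with and without it. On transposons it had 32 peaks, against 41 in Sam-S 1, 33 in Sam-S 2 and 38 in control 1. For each peak the lists give a fold enrichment, taken here as the authors' ratio of the 6mA signal over the background from input at the summit. A test of 2 against 2 libraries has 6 assignments and cannot give a two-sided exact permutation p below 0.333, so no difference between the genotypes could pass 0.05. Genotypes are therefore described by each library's value, the overlap of the groups and the difference within each batch. Nothing in the labels says that replicates came from separate animals, and the spread between them may be technical.

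On ‘412’, Sam-S 1 had 6 peaks and Sam-S 2 had 5, against 7 in control 1 and 5 in control 2. Overlapping peaks of different libraries, by 1 bp or more, were joined to 8 positions, and 4 of them were called in every library. These lay at 1380 to 1702, 3583 to 3929, 5806 to 6153 and 6279 to 7053. On blood, Sam-S 1 had 6 peaks and Sam-S 2, control 1 and control 2 had 5 each. They formed 5 positions, at 483 to 895, 1856 to 2190, 3545 to 4452, 5052 to 5598 and 5777 to 6850, and every library had a peak at all 5. Together 9 of the 13 positions on both elements were found in all 4 libraries. Of the 34 positions on the other transposons, 12 were, and over all 47 transposon positions the share was 44.7%.

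**Figure D1:**
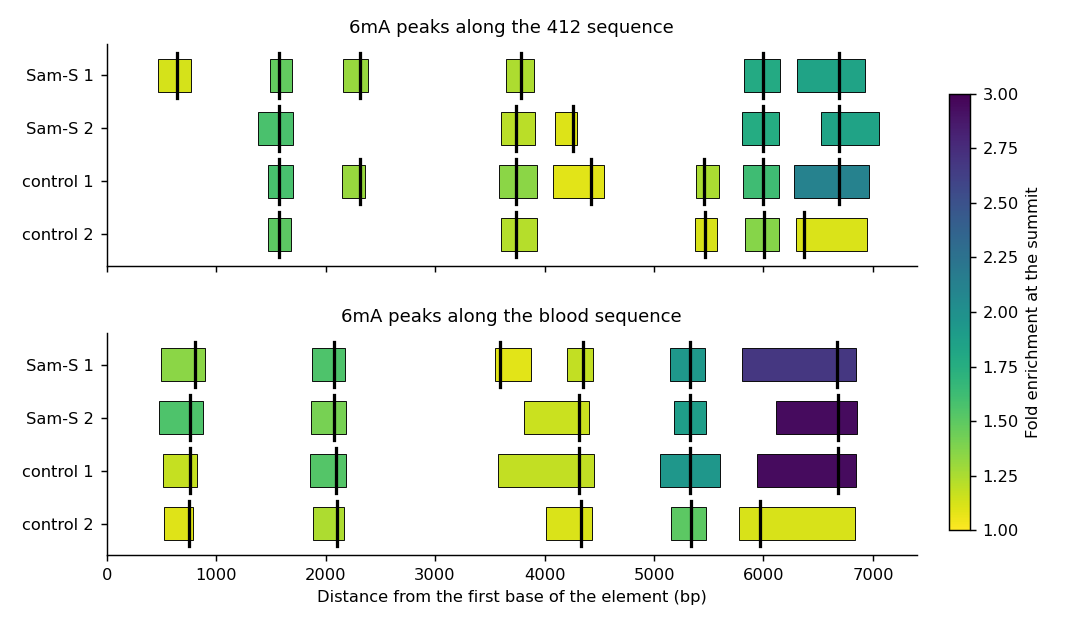
Peaks along ‘412’ (top) and blood (bottom), with 1 row per library and the distance from the element's first base in bp on the x axis. Boxes span the peaks, black bars mark summits and colour gives the fold enrichment at the summit. The last peak of each element has its summit near 6688 (‘412’) or 6677 (blood) in Sam-S 1, Sam-S 2 and control 1, while the summit of control 2 lies at 6368 on ‘412’ and at 5971 on blood.

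The summits, the bases that the lists name as the top of a peak, recurred at nearly the same base. On ‘412’ the summit at 1380 to 1702 was base 1576 in Sam-S 1, 1572 in Sam-S 2, 1578 in control 1 and 1575 in control 2, a range of 6 bp. At 5806 to 6153 the 4 summits fell within 9 bp, and on blood those at 5052 to 5598 fell within 7 bp. The other shared positions had ranges of 30 to 53 bp, apart from the last position of each element. There the summits of Sam-S 1, Sam-S 2 and control 1 lay within 1 bp of each other on ‘412’ and within 7 bp on blood, and that of control 2 lay elsewhere in the peak. Summits more than 150 bp apart were thus found at 2 of 9 shared positions, against 23.8% of the 21 shared positions of all transposons, which is near the same share.

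The highest folds of both elements lay at these last positions in 3 of the 4 libraries. On blood at 5777 to 6850 the fold was 2.68 in Sam-S 1 and 2.94 in Sam-S 2, against 2.94 in control 1 and 1.12 in control 2. The Sam-S values and control 1 were close to each other, and control 2 was far below. On ‘412’ at 6279 to 7053 the fold was 1.84 in Sam-S 1 and 1.84 in Sam-S 2, against 2.12 in control 1 and 1.11 in control 2. Both Sam-S libraries thus lay between the controls. The mean difference, Sam-S minus control, was 0.781 for blood and 0.222 for ‘412’ (exact permutation p = 1 for each), and it was -0.129 and -0.281 without control 2. Because a list gives the fold at the summit alone, the fold of control 2 at base 6677 of blood or 6688 of ‘412’ is not given. Its strongest peaks lay elsewhere, at summit 5336 of blood with a fold of 1.51 and at summit 1575 of ‘412’ with a fold of 1.51.

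The depth behind these folds was recovered from the lists. A fold and its −log10 p together fix the height of stacked tags (the pileup) and the background at a summit if p is a Poisson tail, as it is in the genome-wide lists. On ‘412’ the pileups ran from 2126 to 6367 tags and the backgrounds from 1402 to 3923. On blood they ran from 2025 to 3660 and from 1016 to 2637. With 1 tag kept per position and extension to 200 bp, as in the genome-wide calling, no more than 400 tags could stack without scaling, so these pileups could not arise under those settings. At these depths a fold of 1.09 passed as a peak, and the 95% interval of a fold reached at most 7.44% above it. That interval covers counting error only and takes tags as independent, which repeated tags are not. The pileups of control 2 on these elements ran from 2318 to 5326. They ran from 2025 to 5772 in Sam-S 1, 2294 to 5294 in Sam-S 2 and 2568 to 6367 in control 1. These are heights at called summits, not adjusted for library size. Whether depth bears on the folds of control 2 was not tested.

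In Sam-S 1, Sam-S 2 and control 1 the position with the highest fold was not the one with the most 6mA tags, on either element. In control 2 this held on ‘412’ but not on blood, where the peak with summit 5336 had both its highest fold and its highest pileup, 2933 tags. At the last position of blood the pileup was 2750 tags in Sam-S 1 and 3296 in Sam-S 2, against 2988 in control 1. At 5052 to 5598 it was higher, at 3548 in Sam-S 1 and 3588 in Sam-S 2, against 3660 in control 1. The backgrounds were 1025 and 1121 in Sam-S 1 and Sam-S 2 and 1016 in control 1 at the last position, against 1832, 1902 and 1887 at 5052 to 5598. Those 3 values at the last position were the lowest backgrounds among the 44 peaks. On ‘412’ the highest pileup of every library lay at 5806 to 6153, with 5772 tags in Sam-S 1, 5294 in Sam-S 2, 6367 in control 1 and 5326 in control 2. The backgrounds there were 3236, 2989, 3923 and 3913 in the same libraries. At the last ‘412’ position Sam-S 1, Sam-S 2 and control 1 had 2581, 3016 and 3269 tags over backgrounds of 1402, 1640 and 1541.

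**Figure D2:**
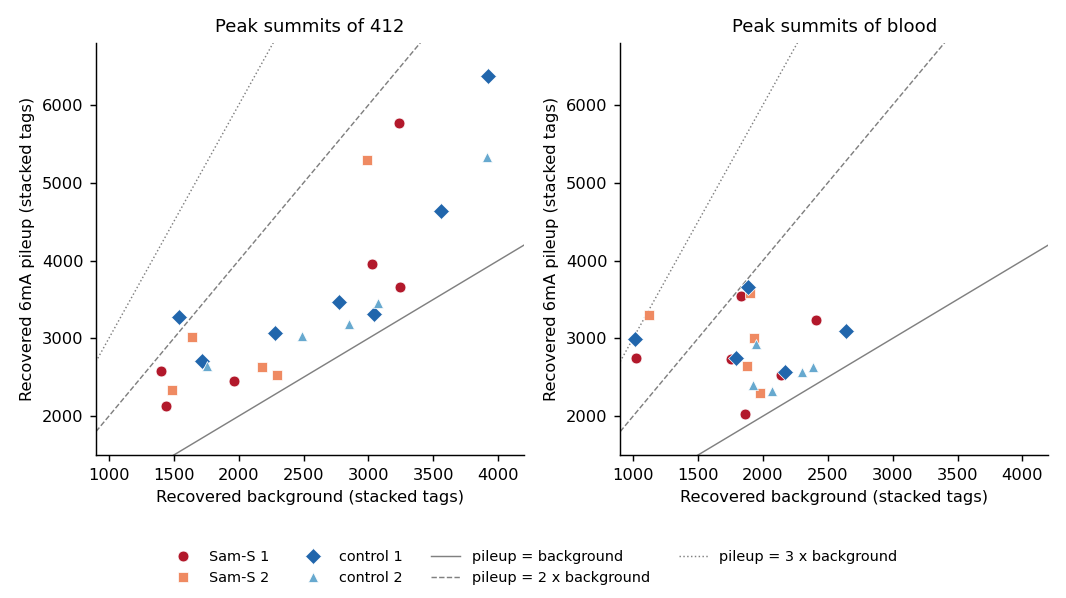
Recovered 6mA pileup (y axis, stacked tags) against recovered background (x axis, stacked tags) at each peak summit of ‘412’ (left) and blood (right), with a marker per library and grey lines where the pileup is 1, 2 or 3 times the background. On blood the 3 points nearest the 3-fold line are the last position in Sam-S 1, Sam-S 2 and control 1, with the lowest backgrounds (1016 to 1121), and on ‘412’ the highest pileups (5294 to 6367) lie at higher backgrounds.

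At 2 of the 9 shared positions both Sam-S libraries were above both controls, against 23.8% of the 21 shared positions of all transposons, so this share was near the background. The first was 5806 to 6153 of ‘412’. Its fold was 1.78 in Sam-S 1 and 1.77 in Sam-S 2, against 1.62 in control 1 and 1.36 in control 2. The mean was 1.78 ± 0.00894 in Sam-S and 1.49 ± 0.185 in control libraries (SD, n = 2 each), a difference of 0.285 (exact permutation p = 0.333). Batch 1 alone gave 0.161 and batch 2 alone 0.410; leaving out control 2 gave 0.154. The difference exceeded the gap between the controls by little, since these lay 0.262 apart. The counting intervals of this fold were 1.71 to 1.86 in Sam-S 1 and 1.69 to 1.85 in Sam-S 2, against 1.56 to 1.69 in control 1 and 1.31 to 1.42 in control 2.

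The second was 483 to 895, the first position of blood. The fold was 1.35 in Sam-S 1 and 1.56 in Sam-S 2, against 1.18 in control 1 and 1.10 in control 2. Sam-S averaged 1.45 ± 0.149 and control 1.14 ± 0.0535 (SD, n = 2 each), a difference of 0.313 (exact permutation p = 0.333). Within batch 1 it was 0.170 and within batch 2 it was 0.456. Leaving out control 2 gave 0.275, and leaving out Sam-S 2 gave 0.208, the lowest of these settings, so this difference rested on Sam-S 2 more than on either control. The pileup was 3239 in Sam-S 1 and 3008 in Sam-S 2, against 3100 in control 1 and 2628 in control 2. The backgrounds were 2406 and 1933 in the Sam-S libraries, against 2637 and 2389 in the controls. Sam-S 2, which had the highest fold here, also had the lowest background, and its pileup was below that of control 1. These heights were not put on a common depth. The 6mA tags numbered 39591292 in Sam-S 2 and 47403833 in control 1, and the Sam-S 2 pileups are approximate. The heights therefore do not rank the 6mA signal of the libraries, and the cause of the higher fold was not tested. The summit of Sam-S 1 lay at base 809, about 50 bp beyond the other 3, which fell between 756 and 760.

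**Figure D3:**
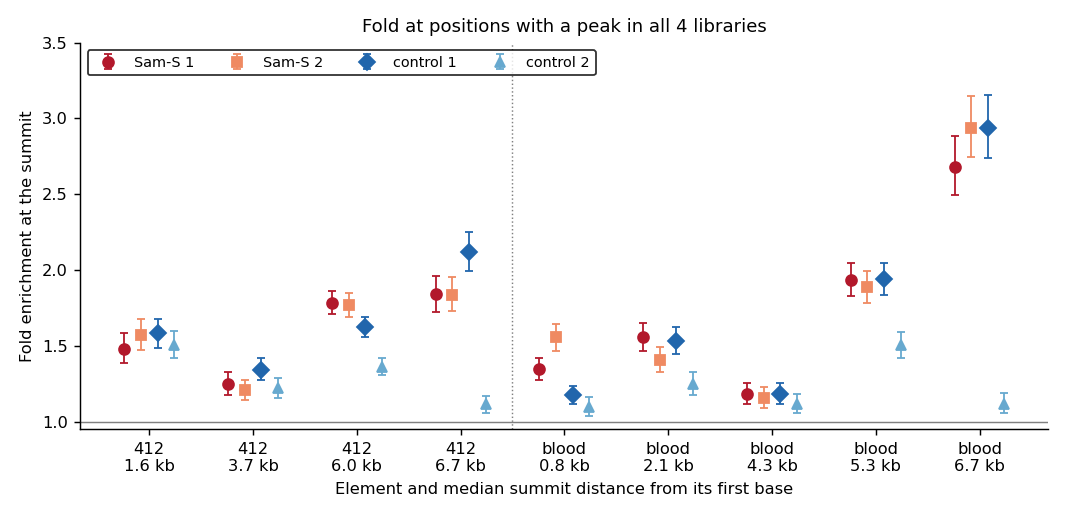
Fold enrichment at the summit (y axis) at the 9 positions of ‘412’ and blood with a peak in all 4 libraries, labelled on the x axis by the median summit distance from the element's first base. Markers are libraries and bars are 95% counting intervals. Both Sam-S libraries lie above both controls at 6.0 kb of ‘412’ and at 0.8 kb of blood. Control 2 is the lowest library at 7 of the 9 positions, by most at the last position of each element. At those last positions the summit of control 2 lies at another base, so its fold there is not compared at the same base.

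The genotypes overlapped at the remaining 7 shared positions. At 1380 to 1702 of ‘412’ the fold was 1.48 in Sam-S 1 and 1.57 in Sam-S 2, against 1.58 in control 1 and 1.51 in control 2. At 3583 to 3929 of ‘412’ it was 1.25 and 1.21 in Sam-S 1 and Sam-S 2, against 1.34 in control 1 and 1.22 in control 2, lower in Sam-S in both batches. On blood, the fold at 1856 to 2190 was 1.56 in Sam-S 1 and 1.41 in Sam-S 2, against 1.53 in control 1 and 1.25 in control 2. At 3545 to 4452, where Sam-S 1 had 2 separate peaks, the highest fold was 1.18 in Sam-S 1 and 1.16 in Sam-S 2, against 1.18 in control 1 and 1.12 in control 2. At 5052 to 5598 it was 1.94 in Sam-S 1 and 1.89 in Sam-S 2, against 1.94 in control 1 and 1.51 in control 2. At the positions of blood from 3545 on, Sam-S 1 and Sam-S 2 never exceeded control 1, and the difference between the means was positive with control 2 and negative without it.

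By batch, 3 of the 9 shared positions had a higher fold in Sam-S in both batches (42.9% over all 21), namely 5806 to 6153 of ‘412’ and 483 to 895 and 1856 to 2190 of blood. A lower fold in both batches was found at 1 of the 9 (19.0% over all 21). At none of the 9 were both controls above both Sam-S libraries, against 14.3% over all 21. Positions of a library share its input and depth, and these counts are descriptions.

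Positions that some libraries lacked were all on ‘412’. The peak at 5372 to 5590 was called in neither Sam-S library and in both controls, where its fold was 1.25 (control 1) and 1.12 (control 2). It was the only such position on either element, 1 of 13, against 6.38% of all 47 transposon positions. The reverse, a call in Sam-S 1 and Sam-S 2 without any in the controls, was found at 0 of 13 positions, against 8.51% of all 47. The peak at 2148 to 2383 was found in batch 1 only, where Sam-S 1 had a fold of 1.31 and control 1 a fold of 1.30, with summits 1 bp apart. At 4081 to 4542, Sam-S 2 had a fold of 1.10 and control 1 a fold of 1.09, with summits 162 bp apart. The position at 473 to 772 was called in Sam-S 1 alone, with a fold of 1.13. A missing peak says only that the authors' threshold was not passed there, since the lists hold no value outside peaks.

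The peaks of ‘412’ covered 1953 bp in Sam-S 1 and 1703 bp in Sam-S 2, against 2466 bp in control 1 and 1694 bp in control 2. The Sam-S mean was 252 bp below the control mean (exact permutation p = 1). This was -513 bp within batch 1 and 9 bp within batch 2, and the mean difference was 134 bp without control 1. On blood the peaks covered 2649 bp in Sam-S 1 and 2335 bp in Sam-S 2, against 2970 bp in control 1 and 2355 bp in control 2. The difference was -170.5 bp (exact permutation p = 0.667), with -321 bp in batch 1 and -20 bp in batch 2, and 137 bp without control 1. Control 1 thus had the longest coverage on both elements.

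Averaged over its 4 shared positions, the fold of ‘412’ was 1.59 in Sam-S 1 and 1.60 in Sam-S 2, against 1.67 in control 1 and 1.30 in control 2. The genotype means were 1.59 ± 0.00616 for Sam-S and 1.48 ± 0.259 for control (SD, n = 2 each), a difference of 0.109 (exact permutation p = 1) that became -0.0748 without control 2. Over the 5 positions of blood the mean fold was 1.74 in Sam-S 1 and 1.79 in Sam-S 2, against 1.75 in control 1 and 1.22 in control 2. The means were 1.76 ± 0.0342 for Sam-S and 1.49 ± 0.379 for control (SD, n = 2 each), a difference of 0.278 (exact permutation p = 0.667) that was 0.0104 without control 2. The Sam-S libraries and control 1 lay close together on both elements.

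Summaries over every peak of an element gave other sizes than its highest fold, for which the difference was 0.0264 on ‘412’ and 0.588 on blood (exact permutation p = 1 for each). The median fold of the ‘412’ peaks was 1.39 in Sam-S 1 and 1.57 in Sam-S 2, against 1.34 in control 1 and 1.22 in control 2. Both Sam-S libraries were above both controls, by 0.200 on average (exact permutation p = 0.333). The difference was 0.139 without control 2 and 0.111 without Sam-S 2. This order was not particular to ‘412’. The median folds of Tabor, accord2 and roo showed it too, and those of HeT-A, Idefix and blood did not. For blood the median was 1.45 in Sam-S 1 and 1.56 in Sam-S 2, against 1.53 in control 1 and 1.12 in control 2, and the groups overlapped. Weighted by peak length, the fold of blood was 1.92 in Sam-S 1 and 1.91 in Sam-S 2, against 1.90 in control 1 and 1.19 in control 2. Its groups did not overlap, with a difference of 0.375 (exact permutation p = 0.333), but this was 0.0188 without control 2. Weighted folds of Tabor, accord2 and roo were likewise higher in both Sam-S libraries than in both controls, and those of HeT-A and Idefix were not. The length-weighted fold of ‘412’ was 1.54 in Sam-S 1 and 1.57 in Sam-S 2, against 1.56 in control 1 and 1.23 in control 2, and the groups overlapped. These summaries run over the peaks each library had, which on ‘412’ were not the same positions.

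When positions were instead joined by summits within 150 bp, the last position of each element was no longer shared with control 2. Over the 3 remaining shared summits of ‘412’ the mean fold was 1.504 in Sam-S 1 and 1.52 in Sam-S 2, against 1.52 in control 1 and 1.36 in control 2, a difference of 0.0708 (exact permutation p = 0.667) that was -0.00600 without control 2. Over the 4 of blood it was 1.51 in Sam-S 1 and 1.501 in Sam-S 2, against 1.46 in control 1 and 1.24 in control 2, a difference of 0.153 (exact permutation p = 0.333) that was 0.0452 without control 2. The mean over matched summits remained lowest in control 2 on both elements, by less than at overlapping peaks. On blood control 2 was the lowest library at each matched summit. On ‘412’ it was lowest at 5806 to 6153 only, while Sam-S 1 was lowest at 1380 to 1702 and Sam-S 2 at 3583 to 3929.

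The elements were set beside each other and beside the other transposons within each library. The highest fold of ‘412’ minus that of blood was -0.842 in Sam-S 1 and -1.10 in Sam-S 2, against -0.819 in control 1 and -2.3e-04 in control 2. The mean was -0.691, and the difference was negative in 4 of 4 libraries. In control 2 it was a near tie, far smaller than the counting interval of either fold. The two-sided exact sign-flip permutation p of 0.125 is the lowest value 16 sign patterns can give. That p depends on the sign of the near tie. With the median fold of an element's peaks the difference was -0.0568 in Sam-S 1 and 0.0152 in Sam-S 2, against -0.190 in control 1 and 0.102 in control 2. Its mean was then -0.0323, with either sign in 2 of the 4 libraries (exact sign-flip permutation p = 0.75). Blood had the highest fold of all transposons in Sam-S 1, Sam-S 2 and control 1 and ranked 4 in control 2, while ‘412’ ranked 5 in Sam-S 1, Sam-S 2 and control 2 and 3 in control 1. The mean of both elements exceeded the median of the other transposons by 0.422 in Sam-S 1 and 0.504 in Sam-S 2, against 0.792 in control 1 and 0.0301 in control 2 (mean 0.437, exact sign-flip permutation p = 0.125). With the median fold of an element's peaks in place of the highest, that mean difference was -0.0716 (exact sign-flip permutation p = 0.375), opposite in sign. The highest fold of ‘412’ alone was 1.840 in Sam-S 1 and 1.838 in Sam-S 2, against medians of the other transposons of 1.839 and 1.885. In control 1 it was 2.12 against 1.74, and in control 2 it was 1.51 against 1.48. A highest fold is also a maximum over unlike numbers of peaks, from 1 on gypsy10 to 10 on roo in control 1. On ‘412’ there were up to 7. The highest fold among the other transposons was 2.36 in Sam-S 1, 2.61 in Sam-S 2, 2.33 in control 1 and 1.65 in control 2.

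**Figure D4:**
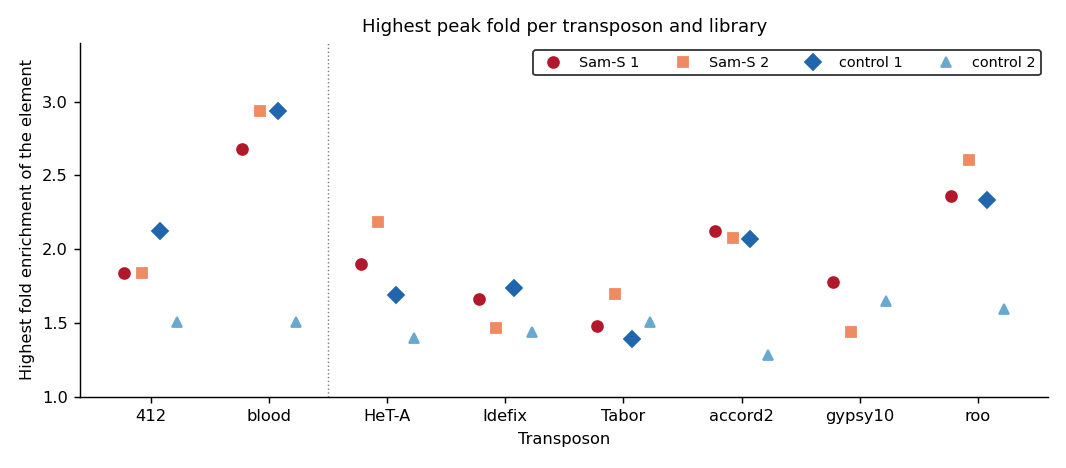
Highest fold enrichment of each transposon (y axis) by library, with ‘412’ and blood left of the dotted line and the 6 other transposons right of it. Blood reaches 2.68 to 2.94 in Sam-S 1, Sam-S 2 and control 1, above every other transposon in those libraries, and 1.51 in control 2, while ‘412’ lies between 1.51 and 2.12. No marker is drawn for gypsy10 in control 1, which had no peak there.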

How the data were processed

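The 4 transposon peak lists, 1 per immunoprecipitated library, have no header; the caller, cutoff and treatment of repeated tags are not given in the sources used here. Bowtie2 is named in the submitters' processing notes. In the narrowPeak columns the authors deposited a fold enrichment (a ratio), −log10 p and −log10 q, and an integer score that equals 10 times the −log10 q in all 144 rows. The genome-wide lists, called with MACS version 2.1.1.20160309 against each library's input, per the file headers, were used for tag totals and for the deposited pileup signal. Starts were shifted to 1-based. Pileup and background were recovered from fold and −log10 p; on the genome-wide lists the recovered pileup differed from the deposited one by a median of 0 tags in batch 1 libraries and by 1.56 (Sam-S 2) and 1.43 (control 2) tags where the authors scaled the pileup. On transposon peaks where the step between whole pileups was clear, the match lay within 0.1 of a step of a whole number for 16 of 16 peaks in Sam-S 1, 3 of 16 in Sam-S 2, 11 of 12 in control 1 and 5 of 5 in control 2, so the values of Sam-S 2 are approximate. The recovery was tested on 400 simulated summits and the merging on 50 simulated lists. Peaks sharing at least 1 bp were merged, and the highest fold stood for a library with several peaks. All positions of both elements are described. The members and lists were chosen with earlier results of these data known. The labels give each library a batch, 1 or 2, equal to its replicate number, and the libraries were paired by that label. The deviations of same-numbered libraries had a correlation of 0.0717 across the 21 shared transposon positions. Across the 9 on ‘412’ and blood it was -0.202. Positions of a library are few and not independent, so these correlations cannot show whether the batches are paired. Alternatives were cutoffs (fold of 1.5, −log10 q of 5), joining within 100 bp, other overlap rules, other summaries, a batch block and the omission of each library. Calculations ran in Python 3.11.15 with scipy 1.17.1 and pandas 2.3.3, and figures in matplotlib 3.10.9.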

Additional observations from a re-analysis of the deposited data

How the results depend on the processing

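No exact test here could pass 0.05, so only directions and sizes were compared, and the cause of each change was not tested. All differences are Sam-S minus control unless named otherwise. With folds of at least 1.5, the difference in peak number on ‘412’ was 0.5 and in covered length 350.5 bp, and in covered length on blood 493.5 bp, each of opposite sign to the full lists. The difference in peak number on blood was 0 with a −log10 q of at least 5. Leaving out each library in turn gave -1.5 to 0.5 peaks and -638 to 134 bp on ‘412’, and 0 to 1 peaks and -478 to 137 bp on blood. The highest fold ran from -0.281 to 0.334 on ‘412’ and from -0.129 to 1.31 on blood, and the mean fold over shared positions of ‘412’ from -0.0748 to 0.292. Each of these 3 fold differences was negative only in the setting without control 2. Settings added after the values were seen left out control 2 together with another choice, and gave -0.00240 for the length-weighted fold of ‘412’, -0.0305 for the median fold of blood and -0.00600 for the matched summits of ‘412’. At single positions the ranges were -0.0637 to 0.0276 (‘412’, 1380 to 1702), -0.116 to 0.00648 (‘412’, 3583 to 3929), -0.281 to 0.725 (‘412’, 6279 to 7053), -0.0529 to 0.231 (blood, 1856 to 2190), -0.0138 to 0.0539 (blood, 3545 to 4452), -0.0281 to 0.406 (blood, 5052 to 5598) and -0.129 to 1.69 (blood, 5777 to 6850). The differences at 5806 to 6153 of ‘412’ and 483 to 895 of blood kept their sign in all 4. That was fixed in advance, since both Sam-S folds were above both controls there, and it is no sign of robustness. For ‘412’ minus blood, the difference in peak number was -0.25 with folds of at least 1.5 and 0 to 0.667 across left-out libraries, and the difference in fold was -0.0323 with median folds, and the excess over other transposons was -0.0716 with median folds. With the batch as a replicate block the differences were the same by construction, such as 0.278 for the mean fold of blood, with exact permutation p of 0.5 or 1, and no call changed.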

Other observations

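Because all tags of a library share its depth, the level of blood relative to ‘412’ can be compared between libraries. At the summits within 150 bp of each other in all 4 libraries (3 on ‘412’ and 4 on blood), the mean background of blood divided by that of ‘412’ was 0.919 in Sam-S 1 and 0.867 in Sam-S 2, against 0.803 in control 1 and 0.787 in control 2. The Sam-S mean was 0.893 ± 0.0363 and the control mean 0.795 ± 0.0112 (SD, n = 2 each), with an exact permutation p of 0.333. The same ratio for the 6mA pileup was 0.873 and 0.843 in Sam-S 1 and Sam-S 2, against 0.746 and 0.718 in control 1 and control 2. Both Sam-S libraries were above both controls in each ratio, and these ratios were chosen after the values were seen. No such ratio was computed for any other pair of transposons. The ratios therefore cannot show whether the split belongs to blood or to ‘412’, or whether it is particular to this pair. The background is a recovered value that is taken here to come from input DNA, which the headerless transposon lists do not state. Whether the genotypes differ in the number of copies of either element was not tested.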
